A study of Mus musculus with 18 samples.

Results

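Antioxidant defence genes encode the enzymes that remove superoxide and peroxides from the cell, and 10 of them were followed here across KDM2A and H3K36me2 ChIP-seq peak lists. The members, chosen by symbol among the 21951 protein-coding genes of GENCODE release M21 on GRCm38, were Sod1, Sod2, Cat, Gpx1, Gpx4, Prdx3, Prdx5, Txn2, Txnrd2 and Nfe2l2. The cells were splenic B cells of mice on a C57BL/6 background with a working Mir155 gene (WT) or lacking it (KO), purified by negative selection. All cultures received anti-CD40 at 1 µg/ml, anti-IgM at 5 µg/ml and interleukin 4 at 4 ng/ml for 2 days in 1% oxygen. Chromatin was crosslinked with EGS, which bridges longer distances, and with 1% formaldehyde. It was precipitated with anti-KDM2A, against a histone demethylase, or with anti-H3K36me2, against the dimethyl mark at lysine 36 of histone H3 that this enzyme removes. Per antibody, 3 WT and 3 KO libraries were made, with replicate 1 from a male and replicates 2 and 3 from females. Each precipitation took 13.5 µg of chromatin for KDM2A and 1 µg for H3K36me2. KO cells came from deficient mice and not from a deletion induced in culture. The study used mice aged 6 to 25 weeks without giving ages per library, and the labels do not say whether replicates 2 and 3 came from separate animals, so p-values measure only the spread between these libraries.

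Superoxide dismutases turn superoxide into hydrogen peroxide, which catalase, glutathione peroxidases and peroxiredoxins then reduce. Peroxiredoxins of mitochondria are recharged by thioredoxin 2, which thioredoxin reductase 2 keeps reduced with NADPH. Many of these genes are driven by the transcription factor NRF2, the product of Nfe2l2, through the antioxidant response element. KDM2A binds unmethylated CpG dinucleotides through its CXXC zinc finger and removes methyl groups from H3K36me2, and the study asked whether KDM2A, a target of miR-155, acts differently when the microRNA is missing.

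The KDM2A lists held 23372 to 29105 peaks in WT and 15387 to 21705 in KO, and the H3K36me2 lists 85387 to 94136 in WT and 37447 to 106720 in KO. KO replicates 2 and 3 had the shortest H3K36me2 lists, with 1.59% and 1.44% of the genome under peaks against 3.63% in KO replicate 1 and 4.17% to 5.32% in WT. No read counts came with the lists and depth is unknown, so a gene without a peak is a gene without a call and not one shown to lack the protein or the mark. KDM2A promoter peaks were called in at least 5 of the 6 lists at 7 of 8 B cell marker genes, 1 of 6 T cell, 0 of 5 myeloid and 1 of 4 erythroid marker genes. A peak does not measure expression, so the cell type itself could not be checked in these lists.

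All 10 members matched promoter sequences of RefSeq (GRCm38.p6), which run from 250 bases before to 50 after a start site. The 13 windows, 4 of them for Gpx4, held between 3 and 34 CG dinucleotides, against a median of 7 over 32851 promoters. Over all protein-coding genes with such a window, those with a KDM2A promoter peak in all 6 lists had a median of 25 CG (n = 4631) and those with a peak in none had 4 (n = 6174). The upstream part of 6 windows is shown, up to the first annotated exon, to set beside each other genes called in all 6 lists (Sod1, Gpx4), the 2 with every KO value under every WT value (Sod2, Txn2) and the one called in a single list (Prdx3). For Prdx5, Gpx1 and Nfe2l2 an annotated exon leaves little or no upstream sequence in the window, and none is shown. CG dinucleotides are in capitals and the strand is that of the gene.
Sod1, chr16:90220512-90220753, plus strand: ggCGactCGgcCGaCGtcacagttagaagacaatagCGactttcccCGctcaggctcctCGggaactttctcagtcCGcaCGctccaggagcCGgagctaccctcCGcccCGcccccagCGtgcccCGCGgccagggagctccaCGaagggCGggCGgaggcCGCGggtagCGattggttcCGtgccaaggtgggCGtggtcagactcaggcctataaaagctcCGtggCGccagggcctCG
Sod2, chr17:13007589-13007816, plus strand: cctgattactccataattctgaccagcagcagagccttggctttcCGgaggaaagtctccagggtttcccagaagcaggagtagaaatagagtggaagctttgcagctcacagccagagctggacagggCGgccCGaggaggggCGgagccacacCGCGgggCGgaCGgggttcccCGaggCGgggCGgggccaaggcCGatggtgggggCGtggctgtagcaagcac
Txn2, chr15:77929007-77929244, minus strand: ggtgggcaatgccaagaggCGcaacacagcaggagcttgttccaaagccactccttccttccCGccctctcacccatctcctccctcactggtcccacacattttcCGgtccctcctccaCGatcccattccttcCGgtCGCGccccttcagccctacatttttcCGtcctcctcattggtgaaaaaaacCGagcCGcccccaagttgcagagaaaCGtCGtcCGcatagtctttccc
Gpx4 at its annotated 5′ end, chr10:80046916-80047165, plus strand: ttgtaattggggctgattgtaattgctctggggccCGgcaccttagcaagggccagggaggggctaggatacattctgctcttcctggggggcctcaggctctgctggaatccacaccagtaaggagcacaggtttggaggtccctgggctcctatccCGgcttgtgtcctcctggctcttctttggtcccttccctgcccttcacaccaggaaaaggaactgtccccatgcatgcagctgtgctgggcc
Gpx4 before its downstream starts, chr10:80053315-80053487, plus strand: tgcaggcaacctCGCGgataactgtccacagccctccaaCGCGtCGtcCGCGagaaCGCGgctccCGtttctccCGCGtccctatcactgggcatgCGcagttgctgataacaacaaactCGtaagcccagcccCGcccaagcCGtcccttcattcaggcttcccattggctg
Prdx3, chr19:60874557-60874788, minus strand: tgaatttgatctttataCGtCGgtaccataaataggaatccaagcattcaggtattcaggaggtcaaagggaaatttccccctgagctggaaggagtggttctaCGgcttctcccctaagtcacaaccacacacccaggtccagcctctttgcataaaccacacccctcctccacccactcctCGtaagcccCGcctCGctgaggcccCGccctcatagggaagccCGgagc

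The Sod1 window was the richest of the members, with 34 CG in 300 bases, a count that 93% of all promoters did not exceed. Both Gpx4 windows belong to the same gene, but the window at the annotated 5′ end held 3 CG and the one 6399 bp downstream held 31. Prdx3 had 15 CG, Txn2 16 and Sod2 21. The remaining members held 11 (Cat and Gpx1), 18 (Nfe2l2), 22 (Prdx5) and 25 (Txnrd2). The core of the antioxidant response element, TGACNNNGC searched on both strands, was found in the windows of 2 members, Sod1 and Nfe2l2, and in 12.4% of all promoters. The hypoxia response core was searched on both strands as ACGTG, found at Gpx1 and Txnrd2 and in 19.6% of all promoters, and as GCGTG, found at 6 members and in 32.4%. These percents are shares of single windows, whereas a member counted if any of its windows matched. Gpx4 had 4 windows, and its GCGTG matches were not at the annotated 5′ end, so the member count and the percent are not alike. A match of letters is not a bound site, and no match says only that the letters are not in this window.

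KDM2A lay at the promoters of 9 of the 10 members in nearly every list. Sod1, Gpx1, Gpx4, Prdx5 and Nfe2l2 had a KDM2A peak within 2 kb of a transcription start site (TSS) in all 6 lists. Sod2, Cat, Txn2 and Txnrd2 had one in 5 lists and Prdx3 in 1. Over all protein-coding genes, 26.4% had a peak in all 6 lists, 36.2% in at least 5 and 39.2% in none. The value given for a gene is its promoter fold, the highest fold over the local control background among the peaks in that window. The median promoter fold of the members with a peak was 3.21 to 3.27 in the WT lists and 3.00 to 3.24 in the KO lists, against 2.90 to 3.16 and 2.90 to 2.97 over all genes with a peak.

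**Figure D1:**
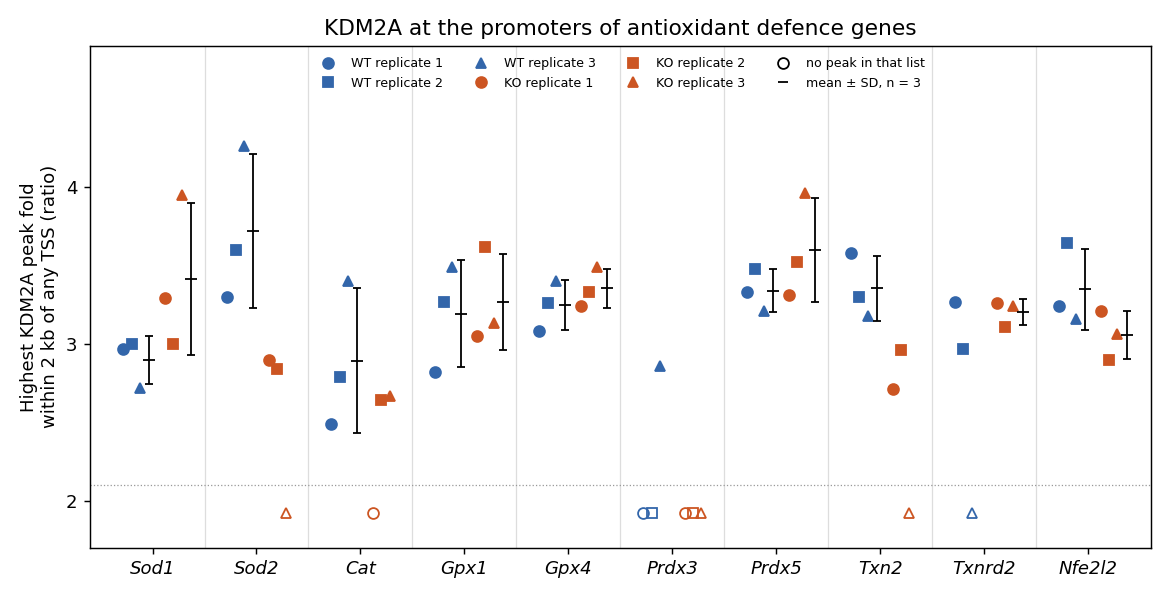
Highest KDM2A peak fold (ratio over the control background) within 2 kb of any TSS for each member and library; circles, squares and triangles are replicates 1, 2 and 3, open symbols below the dotted line are lists with no peak, and bars are mean ± SD where all 3 lists had a peak. At Sod2 and Txn2 the KO points lie below every WT point, and at the other members the genotypes overlap.

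Both superoxide dismutases carried KDM2A, Sod1 in all 6 lists and Sod2 in 5, and the genes were not tested against each other. Sod1, the cytosolic copper and zinc enzyme (chr16:90220754-90226329), had a promoter fold of 2.97, 3.00 and 2.72 in the WT libraries and 3.29, 3.00 and 3.95 in the KO libraries. KO replicate 3 stood highest and the genotypes overlapped at replicate 2. The peak lay within 374 bp upstream and 671 bp downstream of the single annotated TSS in every list, with the centre of the merged interval over an exon of Sod1. The WT mean was 2.90 ± 0.151 and the KO mean 3.41 ± 0.490 (SD, n = 3 per genotype), a log2 difference of 0.29 (SE 0.12) that did not pass the threshold (limma, Benjamini-Hochberg adjusted p = 0.907, unadjusted p = 0.0237).

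Sod2, the manganese enzyme of the mitochondrial matrix (chr17:13006846-13040063), had a promoter fold of 3.30, 3.60 and 4.26 in WT and of 2.90 and 2.84 in KO replicates 1 and 2. KO replicate 3 had no peak. With the list without a peak counted as lowest, every KO list was below every WT list. The peak did not sit at the annotated 5′ end of the gene but between 762 and 1803 bp downstream, where the RefSeq start site lies at 993 bp. In the fit that admitted genes with a peak in 2 of 3 lists of each genotype, the log2 difference was −0.30 (SE 0.15, limma adjusted p = 0.941, with KO replicate 3 dropped).

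Txn2, mitochondrial thioredoxin (chr15:77915047-77929006), showed the same order of genotypes. In the WT libraries its promoter fold was 3.58, 3.30 and 3.18, while KO replicates 1 and 2 had 2.71 and 2.96 and KO replicate 3 again had no peak. The promoter peak covered 1850, 1443 and 618 bp in WT and 1343 and 274 bp in KO. The log2 difference was −0.18 (SE 0.13, limma adjusted p = 0.942, with KO replicate 3 dropped). Of the 9 members with a peak in at least 2 of 3 lists of a genotype, Sod2 and Txn2 were the 2 (22.2%) for which every KO list was below every WT list, a list without a peak counted as lowest. Among all 10987 genes with such peaks this held for 10.4%, and the opposite order held for 1.96% and for 0 members. A two-sided exact permutation test of 3 against 3 libraries cannot go below 0.1. The order at Sod2 and Txn2 was the same in windows of 1 kb, at the gene start alone, with stricter peaks and with an equal number of peaks kept per list, 4 settings chosen after the values were seen, under which it held for 10.2%, 10.2%, 10.5% and 9.40% of all bound genes.

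Txnrd2, the reductase of mitochondrial thioredoxin (chr16:18426384-18479073), had a promoter fold of 3.27 and 2.97 in WT replicates 1 and 2 and of 3.26, 3.11 and 3.24 in KO. Here the list without a peak was WT replicate 3, so that Txnrd2 ran opposite to Txn2 in which genotype lacked a call. The peaks were narrow, 319 to 581 bp wide. The log2 difference was 0.10 (SE 0.14, limma adjusted p = 0.965, with WT replicate 3 dropped).

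Among the peroxide-reducing enzymes, Prdx5, Gpx4 and Gpx1 carried KDM2A in all 6 lists. Prdx5, a peroxiredoxin of mitochondria, peroxisomes and cytosol (chr19:6906697-6910106), had a promoter fold of 3.33, 3.48 and 3.21 in WT and 3.31, 3.52 and 3.96 in KO. The percentile rank of its promoter fold among the folds of all peaks in its own list, at promoters or elsewhere, was between 87.9 and 99.0 in all 6 lists. Its KDM2A domain was 1843 to 6189 bp wide over the promoter and reached up to 4203 bp upstream, across Trmt112, a protein-coding gene that starts 47 bp away on the opposite strand. The log2 difference was 0.17 (SE 0.12, limma adjusted p = 0.907).

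Gpx4, the peroxidase that reduces lipid hydroperoxides in membranes (chr10:80047166-80056439), had a promoter fold of 3.08, 3.26 and 3.40 in WT and 3.24, 3.33 and 3.49 in KO. The genotypes overlapped throughout (log2 difference 0.11, SE 0.11, limma adjusted p = 0.947). In every list the strongest peak lay over the downstream starts and not at the annotated 5′ end. It began 4.36 to 5.82 kb from the 5′ end and was 2925 to 7998 bp wide, reaching toward Sbno2. At the 5′ end itself peaks were weaker, with folds of 2.40 and 2.37 in WT replicates 1 and 3 and of 2.57 and 2.63 in KO replicates 2 and 3. With the gene start alone, 4 members in place of 5 had a KDM2A peak in all 6 lists, and Gpx4 was the member that dropped out, while the share of all genes was 23.6%.

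Gpx1, the main cytosolic glutathione peroxidase (chr9:108338903-108340343), is 1441 bp long and lay almost wholly inside a KDM2A domain. The domain was 2967, 5776 and 4759 bp wide in WT and 4172, 2596 and 2253 bp in KO, and it covered 92.7% to 100% of the gene. Its promoter fold was 2.82, 3.27 and 3.49 in the WT lists and 3.05, 3.62 and 3.13 in the KO lists, with full overlap of the genotypes (log2 difference 0.10, SE 0.12, limma adjusted p = 0.950). The antisense gene Gm37401 has a start 630 bp from a start of Gpx1.

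Cat, which encodes catalase (chr2:103453849-103485160), had the lowest mean promoter fold in each genotype among the members called in 5 lists. Its folds were 2.49, 2.79 and 3.40 in WT and 2.64 and 2.67 in KO replicates 2 and 3, with no peak in KO replicate 1. The peak of WT replicate 1 lay 1613 to 2479 bp upstream, while those of the other lists fell between 473 bp upstream and 416 bp downstream of the gene start. The log2 difference was −0.05 (SE 0.12, limma adjusted p = 0.982, with KO replicate 1 dropped). Prdx3, the peroxiredoxin confined to mitochondria (chr19:60864051-60874556), had a KDM2A peak in WT replicate 3 alone, with a fold of 2.86 and a width of 652 bp. Its window of 15 CG dinucleotides was close to the 16 of Txn2, which was called in 5 lists.

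Nfe2l2, the regulator of the group (chr2:75675513-75704641), had a promoter fold of 3.24, 3.64 and 3.16 in WT and 3.21, 2.90 and 3.06 in KO. WT replicate 2 was highest and KO replicate 2 lowest, and the genotypes overlapped (log2 difference −0.07, SE 0.11, limma adjusted p = 0.971). The promoter domain was 1813 to 3405 bp wide and included the start of the transcript E030042O20Rik, 129 bp away on the opposite strand. A further KDM2A interval lay in an intron of Nfe2l2, 20.2 to 22.1 kb from the gene start (chr2:75682548-75684406). It was called in all 3 WT lists and in KO replicates 2 and 3, with a highest fold of 3.47 in KO replicate 3. No other KDM2A interval in the body of a member away from its TSS windows was called in more than 2 lists.

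**Figure D2:**
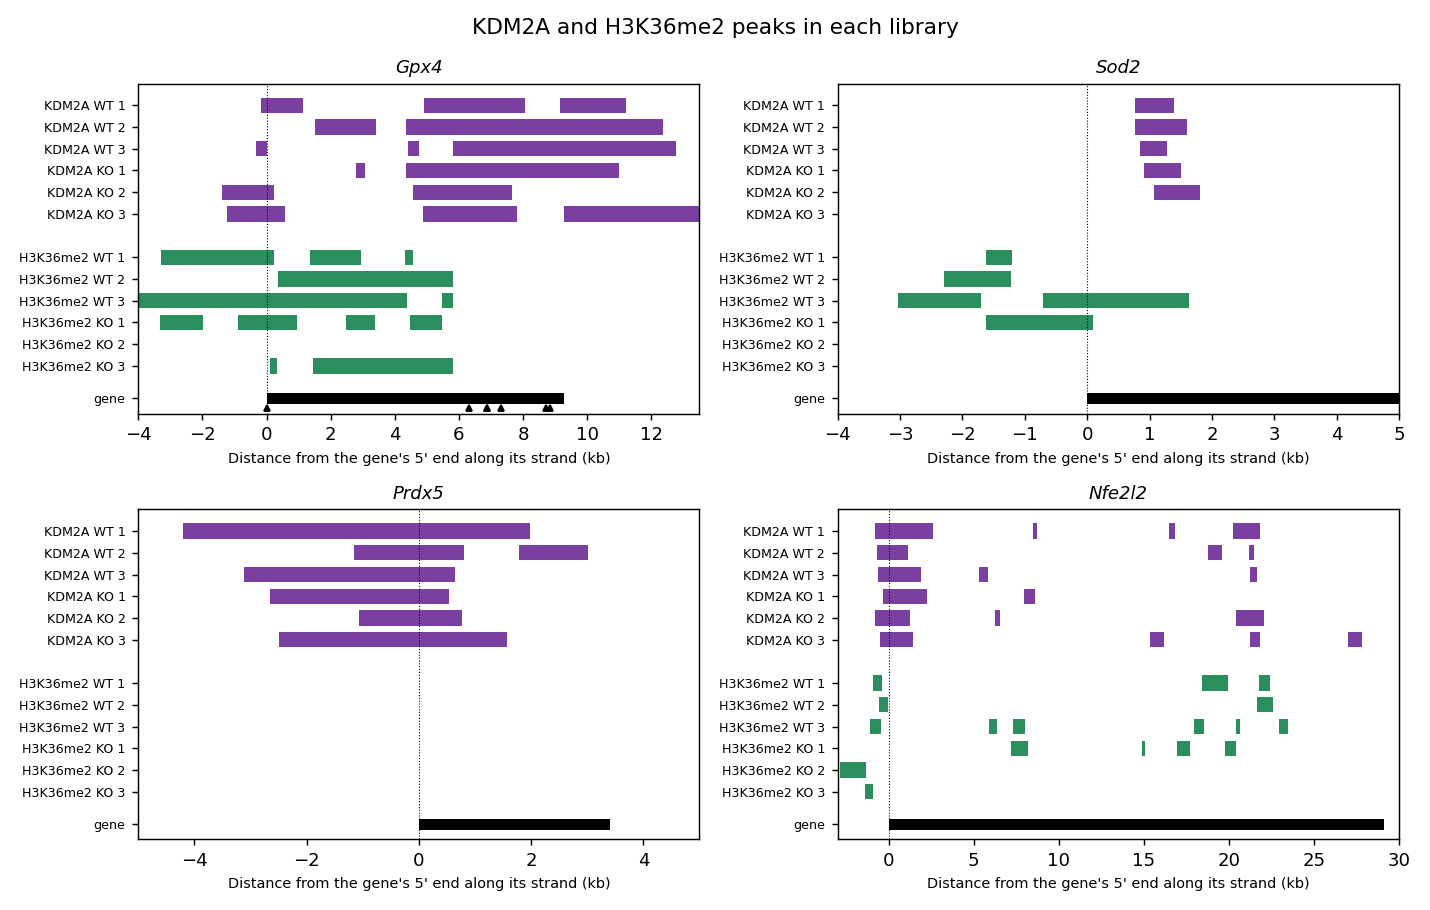
Position of every KDM2A peak (purple) and H3K36me2 peak (green) in each library around 4 members, by distance in kb from the gene's 5′ end along its strand; black bars are the genes and triangles under Gpx4 are its annotated TSSs, and peaks are cut at the panel edges. The H3K36me2 peaks of Gpx4 end by 5.82 kb, ahead of its downstream starts, the KDM2A peaks of Sod2 lie downstream of the 5′ end, Prdx5 has no H3K36me2 peak, and Nfe2l2 has a recurrent intronic KDM2A interval.

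For the 5 members with a KDM2A peak in all 6 lists the change could be set beside that of all genes tested the same way. The log2 difference was above 0 for 4 of them and below 0 for Nfe2l2, with a median of 0.11 against 0.00, which the centring sets, over 5799 genes. Of these genes, 2937 were above 0 and 2862 below. Sod2, Txn2, Cat and Txnrd2 lacked a call in some list and did not enter. In the fit of peaks in 2 of 3 lists of each genotype, their differences were −0.30, −0.18, −0.05 and 0.10. Without centring the median of all genes was −0.06, and the differences were 0.23 for Sod1, 0.10 for Prdx5, 0.05 for Gpx4, 0.03 for Gpx1 and −0.13 for Nfe2l2. Of those genes, 0 (0%) passed an adjusted p of 0.05 with limma and 305 had an unadjusted p under 0.05, 122 of them lower and 183 higher in KO (316 and 41 without centring). The central 95% of all differences ran from −0.25 to 0.26, so that Sod1 at 0.29 lay just outside this range and the others within it. Without KO replicate 3, Sod1 was at 0.19, inside the range. On simulated data made from the 5799 genes, the test recovered 41.5% of changes of 0.5 and 98.5% of changes of 1 on the log2 scale.

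**Figure D3:**
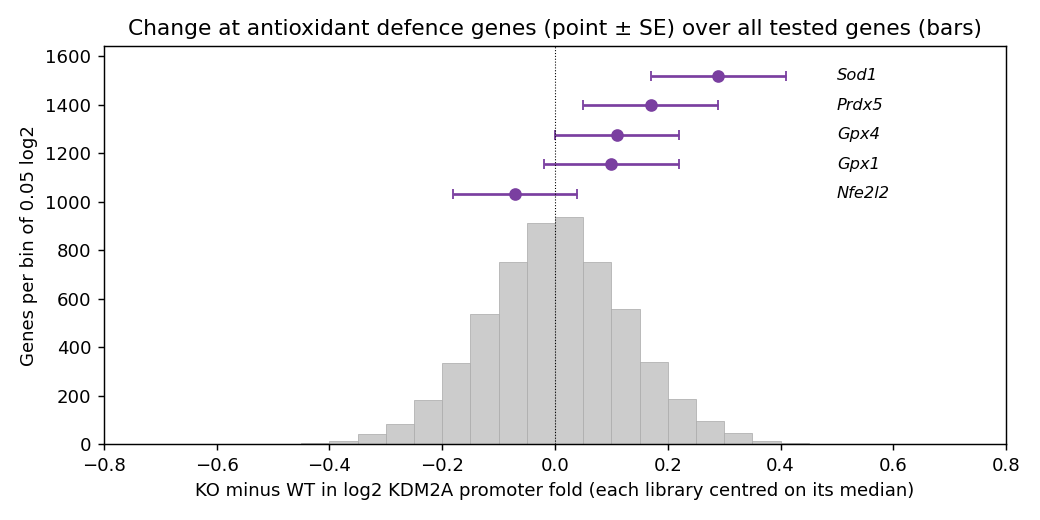
KO minus WT in the log2 KDM2A promoter fold, with each library centred on its median; grey bars count the 5799 genes tested per bin of 0.05 and purple points with bars are the members with their SE. Sod1 lies at 0.29, Prdx5, Gpx4 and Gpx1 between 0.10 and 0.17, and Nfe2l2 at −0.07.

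H3K36me2 peaks were called near the starts of more members than over their bodies in 5 of the 6 lists, the exception being KO replicate 1. Within 2 kb of a TSS a peak was called at 7, 8 and 7 members in WT replicates 1 to 3 and at 4, 2 and 5 in KO, against 39.3%, 40.5% and 41.4% of all genes in WT and 38.6%, 16.1% and 17.7% in KO. A peak touched the gene body of 5, 6 and 4 members in WT replicates 1 to 3, of 5 in KO replicate 1, of 0 in KO replicate 2 and of 1 in KO replicate 3. Over all protein-coding genes the same lists touched 41.3%, 43.1% and 42.9% in WT and 43.1%, 21.0% and 23.2% in KO. The low KO counts over the body were those of the short lists of KO replicates 2 and 3. Near the starts, KO replicate 1 also had fewer members (4) than any WT list, although its share of all genes was 38.6%. The part of list length in the members' difference was not tested. Mean coverage of the members' bodies was 8.36% over the WT lists and 3.37% over the KO lists, beside 6.18% and 2.43% for all genes. Gpx4 carried most of this, and the other 9 members had means of 4.39% and 0.780%, below those of all genes. Prdx3, Prdx5 and Txn2 had 0% of their body under H3K36me2 in every list, and Prdx5 also had no H3K36me2 peak within 2 kb of any TSS, as was the case for 42.9% of all genes.

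Gpx4 was the member with the most H3K36me2. Its body was covered to 22.2%, 58.8% and 51.1% in WT and to 30.7%, 0% and 49.4% in KO. KO replicate 2 stood apart without a peak, and the other KO lists fell within the WT range. The WT mean was 44.0% ± 19.3 and the KO mean 26.7% ± 25 (SD, n = 3 per genotype), a difference of −17.3 percentage points (SE 15.7, limma adjusted p = 0.372). It was −3.98 points without KO replicate 2, −9.96 without WT replicate 2, −28.7 without KO replicate 3 and −28.2 without WT replicate 1. In the 2.5 kb after the 5′ end, coverage was 54.5%, 85.4% and 100% in the WT lists and 38.1%, 0% and 51.1% in the KO lists, so every KO list was below every WT list, if narrowly between WT replicate 1 and KO replicate 3. The difference was −50.2 points (SE 24.8, limma adjusted p = 0.50, unadjusted p = 0.0425). Divided by the percent of the genome under each list's peaks, these values were 13.1, 16.1 and 19.0 in WT and 10.5, 0 and 35.5 in KO, so that KO replicate 3 was highest and the separation was lost (difference −0.733, limma adjusted p = 0.979). With an equal number of peaks kept per list the difference was instead −65.8 points (limma adjusted p = 0.525), and with stricter peaks −43.7 points (limma adjusted p = 0.463).

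The H3K36me2 of Gpx4 stopped before its downstream starts. The last peak in the gene ended 5.82 kb from the 5′ end in WT replicates 2 and 3, at 5.81 kb in KO replicate 3, at 5.48 kb in KO replicate 1 and at 4.58 kb in WT replicate 1. In the 2.5 kb after the start at 6322 bp, H3K36me2 covered 0% in all 6 lists, while KDM2A covered 69.4%, 100% and 100% in WT and 100%, 53.2% and 59.3% in KO. The order along the gene was therefore H3K36me2 over the upstream part and a KDM2A peak over the downstream starts in every pair of lists but KO replicate 2, which had no H3K36me2 peak in the gene. The KDM2A peak over the downstream starts shared 0, 1453 and 2 bp with H3K36me2 peaks in the WT libraries and 999, 0 and 928 bp in the KO libraries. The other KDM2A peaks of the gene shared 382, 1891 and 340 bp in WT and 286, 0 and 214 bp in KO, and KDM2A covered up to 46.0% of the 2.5 kb after the 5′ end, in WT replicate 1, so the upstream part held both signals in several lists.

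Cat was the member with an H3K36me2 peak within 2 kb of a TSS in all 6 lists, as for 6.68% of all genes, but its place differed. In KO the peak lay upstream, from −2531 to −1490 bp in replicate 1, −2659 to −900 bp in replicate 2 and −1688 to −813 bp in replicate 3, with folds of 2.60, 2.71 and 3.06. In WT a peak crossed the start in replicate 2, from −2055 to 1872 bp, while peaks lay from 1688 to 1948 bp in replicate 1 and on both sides of the start in replicate 3. The first 2.5 kb was covered to 10.4%, 74.9% and 58.1% in WT and to 7.76%, 0% and 0% in KO. Every KO list was below every WT list, although WT replicate 1 and KO replicate 1 were 10.4% and 7.76% and thus close. The difference was −45.2 points (SE 21.0, limma adjusted p = 0.497, unadjusted p = 0.0311). It was −28.5 points with an equal number of peaks per list and −66.5 points in the female libraries. Over the whole 31.3 kb of the gene, coverage was 4.28%, 5.98% and 11.0% in the WT lists and 6.50%, 0% and 0% in the KO lists, with overlap.

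Gpx1 and Txnrd2 had coverage of the first 2.5 kb in WT lists only, each in 2 of 3. It was 23.9%, 70.0% and 0% in WT for Gpx1, a window that runs past the end of this short gene, and 49.5%, 43.1% and 0% for Txnrd2, against 0% in the 3 KO lists of each. Because WT replicate 3 was also at 0%, the genotypes were not fully separated at either gene. The differences were −31.3 points for Gpx1 (SE 17.7) and −30.9 points for Txnrd2 (SE 17.6), each with a limma adjusted p of 0.510. For Txnrd2 the difference was −16.5 points with an equal number of peaks per list and with stricter peaks, and −46.3 points without WT replicate 3. The body of Gpx1 was covered in WT replicate 2 alone, to 48.0% (difference −16.0 points, SE 11.8, limma adjusted p = 0.292).

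Sod2 had 65.0% of its first 2.5 kb under H3K36me2 in WT replicate 3, 3.88% in KO replicate 1 and 0% in the other lists (difference −20.4 points, SE 15.4, limma adjusted p = 0.510). Sod1 reached 12.9% in WT replicate 1 and 7.08% in KO replicate 1, both male libraries, and 0% in the others. Nfe2l2 had 0% of its first 2.5 kb covered in every list, but its body held peaks in all 3 WT lists and in KO replicate 1, at 7.34%, 3.22%, 8.84% and 8.94%. These intronic peaks lay mostly 16.9 to 23.5 kb from the gene start, around and partly within the recurrent KDM2A interval.

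Genes entered the test of the first 2.5 kb with a mean coverage of at least 5% over all 6 lists, which 5 members reached. Sod2, Cat, Gpx1 and Txnrd2 did so through WT alone, with KO means of 1.29%, 2.59%, 0% and 0%, so their lower KO values follow in part from the entry rule and nothing is read from their number. Among the 6332 genes tested, every KO list was below every WT list for 15.3%, as at Cat and Gpx4, and above for 0.237%. Of the genes tested, 0 (0%) passed an adjusted p of 0.05 with limma, and 607 had an unadjusted p under 0.05. For the gene body, Gpx1 and Gpx4 alone reached that mean coverage, Gpx1 through WT replicate 2 only, and in both the genotypes overlapped. Among all 5342 genes tested over the body, every KO list was below every WT list for 39.6% and above for 0.0936%, and 0 (0%) passed with limma, while 1677 had an unadjusted p under 0.05. On simulated data the test recovered 70% of changes of 40 points over the body and 0% of those of 20 points, and for the first 2.5 kb it recovered 0% of either size, so a difference of 40 points there was not detectable at this spread.

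**Figure D4:**
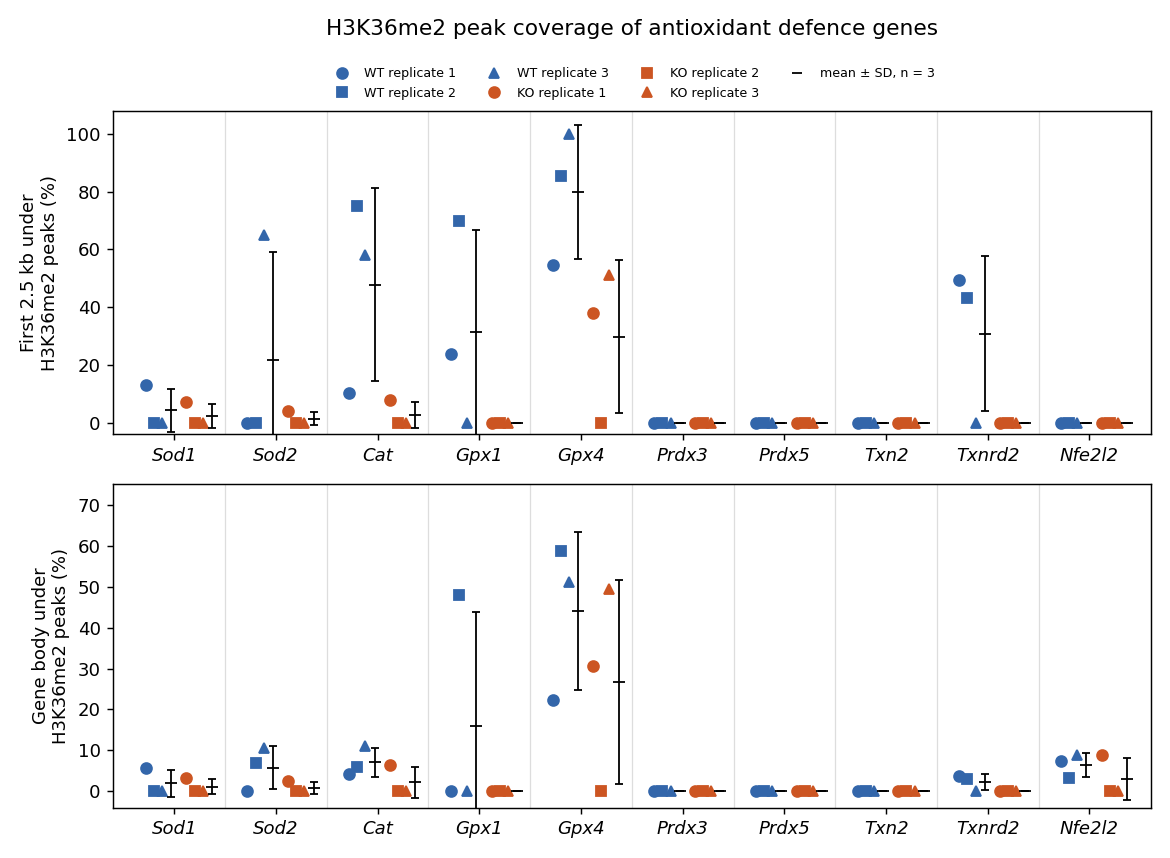
Percent of the first 2.5 kb (top) and of the gene body (bottom) under H3K36me2 peaks for each member and library; symbols are replicates 1 to 3, blue for WT and orange for KO, with mean ± SD. Gpx4 and Cat are lower in each KO list than in each WT list in the top panel, overlap in the bottom panel, and Prdx3, Prdx5 and Txn2 are at 0% in both.

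KDM2A and H3K36me2 peaks shared bases at 4, 5 and 4 of the 9 members with KDM2A in the WT replicates, and at 2 of 8, 0 of 9 and 1 of 7 in KO. Whole peaks were counted, so shared bases can lie beyond the promoter window. Of all bases of the KDM2A peaks that reached within 2 kb of a member's TSS, 8.72%, 28.1% and 10.4% lay under H3K36me2 peaks of the equally numbered library in WT, and 6.32%, 0% and 5.54% in KO. Over all genes the shares were 14.7%, 12.1% and 13.8% in WT and 7.78%, 1.41% and 1.90% in KO. In WT the overlap came from Gpx1, Gpx4 and Nfe2l2 in each of the 3 replicates, and from Sod2, Cat, Txn2 and Txnrd2 in 1 replicate each. Gpx1 had the highest share among the first group, at 27.9%, 47.3% and 28.3% in WT against 6.30%, 0% and 0% in KO. In WT replicate 3 and KO replicate 1 these bases lay downstream of Gpx1, which had no H3K36me2 peak in its body or within 2 kb of a TSS in those lists. Gpx4 had 5.84%, 33.8% and 4.47% in WT and 15.1%, 0% and 10.1% in KO, higher in KO for replicates 1 and 3, and Gpx1 and Gpx4 were the members with any overlap in KO. Sod1 and Prdx5 had KDM2A in every list and no overlap in any.

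The wider antioxidant pathway was described with 58 further genes, grouped by function. A KDM2A promoter peak was present in all 6 lists for 29 of them, in at least 5 for 37 and in none for 8, beside the 26.4%, 36.2% and 39.2% of all genes. Groups were not tested against each other. The genes without a peak were Sod3, Gpx2, Gpx7, Gpx8, Prdx4, Mgst1, Nqo1 and Me1. Among the 12 genes of NRF2 control and targets, 11 had a peak in at least 5 lists, the exception being Nqo1, a classical NRF2 target. Among the 9 genes of superoxide and peroxide removal, 3 had one, namely Prdx1, Prdx2 and Prdx6, and 5 had none in any list.

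None of the 29 passed with limma, and 14 had a lower and 15 a higher fold in KO, with a median log2 difference of 0.01 against 0.00 over all genes. The largest differences were those of Prdx1 (−0.25, SE 0.13), a cytosolic peroxiredoxin, Gclm (−0.21, SE 0.12), the modifier subunit of glutamate-cysteine ligase, and Ucp2 (−0.19, SE 0.12), a mitochondrial carrier. In the other direction they were those of Keap1 (0.24, SE 0.13), the adaptor that directs NRF2 to degradation, Mafg (0.20, SE 0.12), a partner of NRF2 on DNA, and Txn1 (0.18, SE 0.13), cytosolic thioredoxin. All 6 had a limma adjusted p of 0.907. Prdx1 ran from 3.51 to 3.97 in WT and from 2.63 to 3.50 in KO, so its genotypes were just separated. Of the 43 bound genes of this list, the KO lists lay below all WT lists for 3, namely Prdx1, Ucp2 and Cul3, the scaffold of the ligase that degrades NRF2, and above for 0. This share of 6.98% is beside 10.4% of all bound genes.

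H3K36me2 covered a mean of 8.56%, 11.4% and 9.28% of the bodies of these 58 genes in WT and 6.24%, 1.80% and 1.40% in KO. The members had means of 4.33%, 12.6% and 8.14% in WT and 5.17%, 0% and 4.94% in KO, and all protein-coding genes 5.51%, 6.50% and 6.54% against 4.71%, 1.33% and 1.26%. The value of KO replicate 3 for the members came from Gpx4 alone. Of the 23 further genes tested over the body, 0 passed with limma. In 16 of these 23 every KO list was below every WT list, beside 2117 of 5342 (39.6%) for all genes tested. They entered by the same rule of mean coverage, the 23 were not tested as a group, and nothing is read from their number.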

How the data were processed

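KDM2A and H3K36me2 ChIP-seq was available from 18 samples, 12 with a peak list, used here, and 6 input libraries, not analysed here by themselves. Reads had been mapped by the authors to GRCm38 using BWA, and broad peaks were called for each library by MACS2 within nf-core/chipseq (v1.2.2), without pooling of replicates; read filters and the MACS2 version were not given in the sources used here. The deposited fold is a ratio over the local control background without normalization across libraries. Deposited beside it were the −log10 p-value, the −log10 q-value (at least 2 for stricter peaks) and a score; the p-value and score were not used. Depth is unknown, so no counting interval can be given.

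Starts were made 1-based. The members, the further lists and the tests were chosen with earlier results of these data known. Genes and TSSs came from GENCODE M21. For each gene and library, the highest KDM2A fold among peaks overlapping 2 kb either side of any TSS by at least 1 bp was taken, with the percent of the body and of the 2.5 kb after the 5′ end under H3K36me2 peaks. Genotypes were compared with limma 3.58.1 (R 4.3.3; lmFit, eBayes with trend) over all eligible protein-coding genes, on log2 folds centred per library (genes with a peak in all 6 lists) or on coverage (mean of at least 5%), with Benjamini-Hochberg adjustment at 0.05, and the fits were tested on simulated data. Genotype was the only term. Named further genes were the 3 with the largest KDM2A difference in each direction and those with no peak; Cul3, Prdx2 and Prdx6 were named after their values were seen. Alternatives were no centring, percentile ranks, a 1 kb window, the 5′ TSS alone, peaks in 2 of 3 lists, stricter peaks, an equal number of peaks per list, any coverage, coverage divided by the genome share, a replicate block, female libraries and leaving out each library. Python 3.11.15 and numpy 2.4.6 served for the rest, and promoter sequences are those of RefSeq for GRCm38.p6. Neighbouring genes are named for some members only, and 1 neighbour is not reported here.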

Additional observations from a re-analysis of the deposited data

Results flagged for a closer look

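In 5 values the male pair (replicate 1) and the female libraries differed in direction between KO and WT. Each rests on 1 male library per genotype, and no test of the sexes against each other was made. The gene-body H3K36me2 coverage of Gpx4 was 8.45 points higher in the male KO library than in the male WT library, and the mean difference over the female libraries was −30.2 points. For Sod2 these values were 2.44 and −8.71 points, for Cat 2.22 and −8.49 points, and for Nfe2l2 1.61 and −6.03 points. The female KO libraries are those with the shortest H3K36me2 lists, and the part of list length in these differences was not tested. The log2 KDM2A promoter fold of Prdx5, centred per library, differed by −0.04 in the male pair and by a mean of 0.23 in the female libraries. Groups of 3 libraries are too small for the outlier test.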

How the results depend on the processing

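For KDM2A promoter fold and for H3K36me2 coverage of the first 2.5 kb, 0 genes passed the adjusted p of 0.05 under every alternative run. For gene-body coverage the count rose from 0 to 2357 with the female libraries alone, and leaving out 1 library gave 0 to 1455, the highest without KO replicate 1; neither Gpx1 nor Gpx4 was among these genes, with adjusted p of 0.299 and 0.247 in the female libraries and 0.390 and 0.384 without KO replicate 1. Of 149 values of members under alternatives, 1 changed direction: the gene-body coverage of Gpx4 divided by each list's genome share was 5.56 units higher in KO, and the others kept their direction and their side of the threshold. Under the same scaling the first 2.5 kb difference of Gpx4 shrank from −50.2 points to −0.733 units. With an equal number of peaks per list the Gpx4 differences were −65.8 points in the first 2.5 kb and −26.2 points over the body. With stricter peaks they were −43.7 and −25.3 points. Leaving out 1 library moved 3 further KDM2A differences by over 1.5 times, Gpx1 from 0.10 to between 0.01 and 0.17, Prdx5 from 0.17 to 0.10 without KO replicate 3 and Nfe2l2 from −0.07 to −0.04 without WT or KO replicate 2, and in the first 2.5 kb Gpx1 to −47.0 points without WT replicate 3 and Sod2 to −31.2 points without WT replicate 1 or 2. With a replicate block, 0 genes passed for each of the 3 measures, and libraries with the same number did not deviate together (correlations between −0.0507 and 0.0784), so numbers were not taken as pairs. Member counts also held in the windows and peak sets added later, with 5 members called in all 6 KDM2A lists in the 1 kb window, 4 at the gene start, 5 with stricter peaks and 5 with equal peak numbers, against 25.2%, 23.6%, 11.0% and 20.6% of all genes, and 2 with all KO lists under all WT lists. Unknown depth limits all counts of missing peaks.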
